A study of Glycine max with 8 samples.

Results

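The transcripts described here were low in soybean leaves during a first drought and high again during a second one. Members were chosen by measured values, with no other criterion: in the deposited normalized table, the mean log2 intensity of DR1 (first drought) lay more than 2 below that of WT1 (well watered), and the mean of DR2 (second drought) lay more than 2 above that of DR1. A difference of 2 on the log2 scale is 4-fold. The rule selected 113 of the 60228 transcripts with soybean locus names in a table of 60386 entries. The 113 transcripts came from 110 loci, and 4 of them were unique-exon entries (names ending in _UE), which carry probes for an exon that 1 splice form holds alone. They made up 4.74% of the 2383 transcripts that passed the same threshold of a fall at DR1.

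Leaves that lose water accumulate the hormone abscisic acid (ABA), which binds receptors of the PYR/PYL family. The bound receptors block type 2C protein phosphatases, and the kinases that these phosphatases hold in check then change the expression of many genes. A gene whose response to a repeated stress differs from its response to the first one is called a stress memory gene, and a gene that is repressed at first and raised on repetition is the case in which the direction itself turns. Domain names below are those of the Pfam protein families, taken as names only from the annotation that accompanies the study. Soybean is an ancient polyploid, so that many genes have a near copy elsewhere in the genome.

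Seedlings of cultivar Daepoong grew with water for 7 days. WT1 leaves came from a plate that kept its watering tray, and DR1 leaves from a plate whose tray was withdrawn for 4 days. That dry plate received water for 1 day (WT2) and then lost its tray for 4 days more (DR2). The labels of the DR1 samples say 4 hours where the treatment protocol says 4 days. The plants carried no transgene or mutation, each sample pooled several primary leaves, and the experiment was done in 2 independent rounds, giving 2 single-colour arrays per stage and 8 in all. No continuously watered group matched in age to WT2 and DR2 was among the samples, so age and treatment cannot be told apart between the early and the late stages. The same holds for DR2 against WT2, since DR2 leaves were sampled 4 days after WT2 leaves.

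The median raw signal of an array lay between 87 and 159.5 units over a local background of 27 to 33 units, and 55.2% to 65.2% of the probes were well above background. No spot was saturated. One slide carried the 4 arrays of WT1 and DR1, and another slide those of WT2 and DR2. DR1 against WT1 and DR2 against WT2 were therefore comparisons within a slide, whereas in DR2 against DR1 and WT2 against WT1 the slide and the stage cannot be told apart. Leaf markers were bright at WT1: mean deposited intensities ran from 490.2 to 183130 units for 13 annotated transcripts of the chlorophyll-binding family and were 1439 and 11158 units for the lower and the higher of 2 RbcS transcripts, against a median of 232 units over the whole table. The annotation used here named no transcript of the seed storage (Vicilin_N) or nodule (Globin) families, so that those markers were not examined. In leaves as a whole, fewer cells of a type and less RNA per cell cannot be told apart.

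Over the 113 members the deposited log2 difference of DR1 from WT1 had a median of -2.53 (lowest -6.01, highest -2.01), and that of DR2 from DR1 had a median of 2.72 (lowest just past the limit, highest 6.47). Both follow from the selection. In mean intensity, the median member stood at 539 units at WT1, 70.6 units at DR1, 513 units at WT2 and 659 units at DR2, so that most of the recovery was already present after 1 day of water. At WT2, 106 of the 113 members were closer to their WT1 level than to their DR1 level, and the same count was not made for other transcripts. The set was moderate in brightness, with WT1 means from 68.8 to 15707 units.

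**Figure D1:**
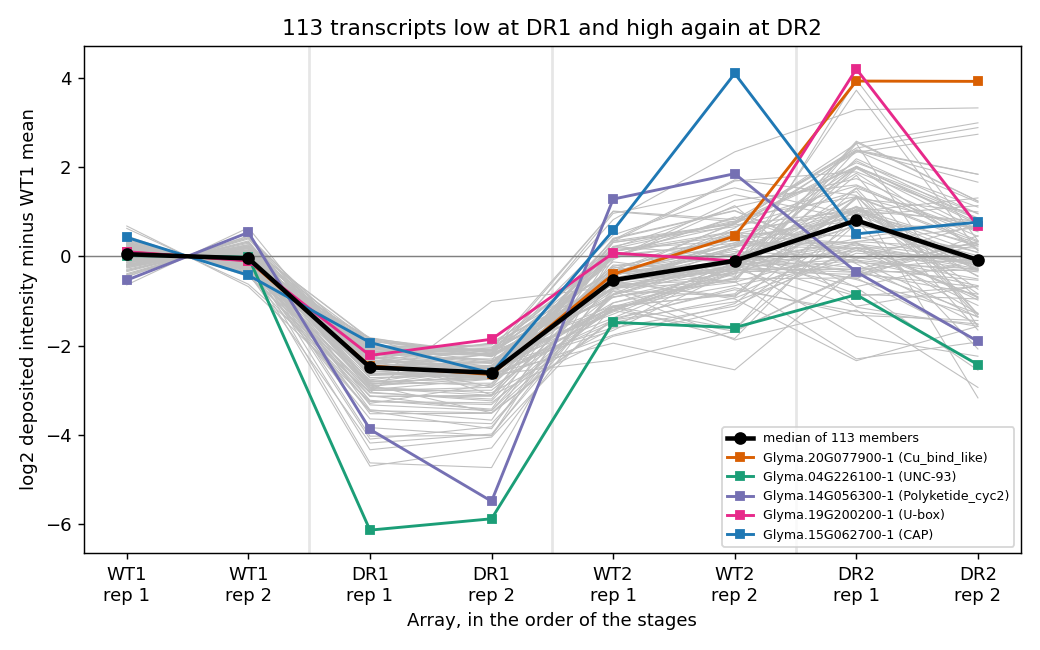
Deposited log2 intensity of each of the 113 members minus its WT1 mean (vertical axis), over the 8 arrays in the order of the stages (horizontal axis). Grey lines are members, the black line is their median on each array, and 5 members named in the text are coloured. The DR1 arrays are low for all members by selection, the median is 0.80 on DR2 replicate 1 and -0.08 on DR2 replicate 2, and the spread between members is wide at DR2.

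Relative to WT1, the level at DR2 was a sum of the differences that chose the members and is given as a description. The median member ended 0.25 above WT1 on the log2 scale. More than 4-fold above WT1 lay 10 transcripts, within 4-fold 100, and more than 4-fold below 3. At a narrower limit of 2-fold, 30 were above, 72 within and 11 below. By these limits on means, most members stood within 2-fold of the first watered level at DR2, with a small group far above it. On single arrays, both DR2 arrays lay above both WT1 arrays for 41 members, below both for 22, and overlapped them for 50. These array counts were not made for all transcripts.

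Members just inside and just outside the thresholds differed little. Glyma.13G120500-1 (p450, a cytochrome P450) and Glyma.16G067000-1 (CCT, a domain of CONSTANS-type regulators) were just inside the fall, at -2.01 each, whereas Glyma.04G052800-1 at -1.99 and Glyma.19G008700-1 at -1.99 were just outside it. At the rise, Glyma.13G259200-1 and Glyma.20G067300-1 were just inside, 0.00144 and 0.00493 past the limit, and Glyma.15G032300-1 (1.96) and Glyma.20G056700-1 (1.95) were just outside. The limit is thus a point on a continuous scale.

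The rule used the mean over a transcript's probes, so the agreement of single probes follows in part from the selection and is given as a description. The members had 285 probes, of which 265 rose well above background in some stage, on both of its arrays. Of these 265 probes, 264 were lower at DR1 than at WT1 and higher at DR2 than at DR1, and 211 passed both 4-fold limits on their own. In 16 members some probes did not rise well above background on both arrays of any stage, and 13 of them rested on a single usable probe of several. For these 16 the fit below averages usable with other probes, which can shrink, enlarge or turn a difference. Over all probes DR2 differed from WT2 by 1.75 in Glyma.U038300-1 and by 0.33 in Glyma.02G177700-1. Over the usable probe the differences were 0.81 and -0.73. Where a fitted difference of such a member is given below, it is therefore over the usable probes. At DR1, 19 members were not well above background on either array, so their fall has only a bound. It sets the WT1 signal against the DR1 signal or the lowest signal that the scanner software called above background, whichever was higher. Taken over all probes, unusable ones included, that bound exceeded 4-fold for 10 of the 19.

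For values that the rule did not use, a linear model with 1 mean per stage was fitted to the scanner intensities of 55087 transcripts with limma, with Benjamini-Hochberg adjustment over the whole table. A transcript was called when the adjusted P was below 0.05 and the change exceeded 4-fold. All 113 members were among the transcripts tested. The 2 contrasts of the rule were called for 92 members (lower at DR1 than WT1) and 101 members (higher at DR2 than DR1), beside 3.85% and 6.86% of all transcripts tested; these counts restate the selection.

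The second drought response, DR2 against WT2, lies within 1 slide and was not itself part of the rule, although the rule asked for high DR2 arrays. DR2 leaves were also older than WT2 leaves, so age and drought cannot be told apart in it. Members called higher at DR2 than at WT2 numbered 15, which is 13.3% of the set and close to the 13.1% of all transcripts tested. Members called lower numbered 2, or 1.77%, beside 15.2% of all. With a 2-fold limit in place of 4-fold, 42 members were higher (37.2%, beside 27.6% of all) and 9 were lower (7.96%, beside 28.8%). The share of members that went up in the second drought was therefore near the background at 4-fold and above it at 2-fold. The share that went down was below the background at both limits. The requirement of a high DR2 level favours both departures.

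In the fit, the median member was 0.71 higher at DR2 than at WT2 on the log2 scale, while the median over all transcripts tested was 0.00. Another 2259 tested transcripts fell past the same DR1 limit and were not raised at DR2, and their median was -3.45 (10th percentile -6.23, 90th percentile -1.04). Rewatering did not separate these groups: from DR1 to WT2 the members gained a median of 2.20 and the others 2.25. At WT2 both were somewhat under WT1, with medians of -0.25 for the members and -0.35 for the others. The members and the remaining repressed transcripts were thus alike in recovery and unlike in the second drought, the step on which they were chosen.

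**Figure D2:**
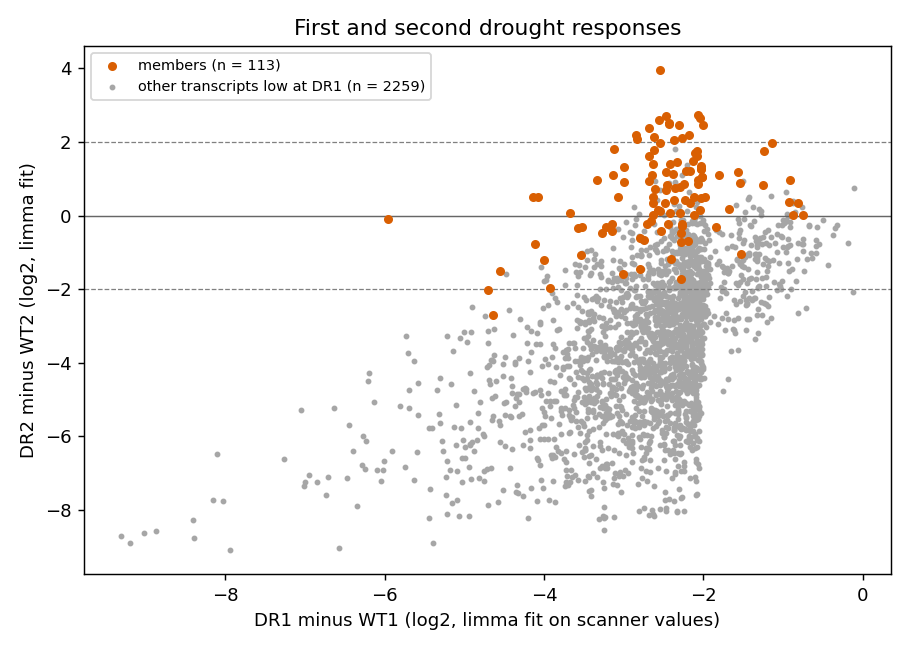
DR2 minus WT2 (vertical axis) against DR1 minus WT1 (horizontal axis), both log2 differences from the limma fit to scanner values, for the 113 members (orange) and 2259 other transcripts past the same DR1 threshold in the deposited table (grey). Dashed lines mark 4-fold; the members lie around 0 and above while the others reach far below. The 15 members right of -2 fell less in this fit than in the deposited table.

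On the deposited arrays themselves, both DR2 arrays lay above both WT2 arrays for 52 members (46%), against 40.3% of all transcripts, and below for 12 members (10.6%), against 39.8%. The arrays overlapped for the remaining 49. All 52 also had both DR1 arrays below both WT1 arrays, which the rule favours. Among all transcripts 5.65% had the combination, a share that is no measure for members chosen on their fall at DR1.

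After rewatering few members were called different from the first watered stage, and more lay below it than above it. In WT2 against WT1, 0 members were called higher by limma, beside 0.387% of all transcripts; without adjustment for multiple tests, 1 passed, and the same test on the deposited table also called 0. One member was called lower (0.885% of the set), beside 0.049% of all. With the 2-fold limit, 1 member was higher (beside 2.68% of all) and 4 were lower (beside 0.688%). Both WT2 arrays lay below both WT1 arrays for 45 members (39.8%, against 27.4% of all transcripts) and above for 17 (15%, against 22.1%). High WT1 arrays were part of the choice, and this contrast crosses the slides.

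The single member called lower at WT2 was Glyma.09G038600-1 (Glyco_hydro_3_C, a family of glucosidases and xylosidases that trim cell wall and other sugars). Its deposited intensities were 2981 and 2244 units at WT1, 723 and 418 at DR1, 671 and 444 at WT2, and 2110.5 and 2502 at DR2. WT2 was as low as DR1, and the stages with high values did not overlap those with low ones. The fitted difference of WT2 from WT1 was -2.27 on the log2 scale (limma, adjusted p = 0.0179), and that of DR2 from WT2 was 2.10 ± 0.33 (SE, adjusted p = 0.000591). Leaving out either WT1 array or WT2 replicate 2 ended the first call, with differences between -1.97 and -2.48. The second call was lost without WT2 replicate 2 (1.80), without DR2 replicate 2 (1.98) and when 50 was added as a normexp offset (1.95). Its unique-exon entry, below 4-fold in the rise and so no member, stood at 349.9 and 313 units at WT2, against 1659 and 1308 units at WT1.

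The 4 others called with the 2-fold limit at WT2 were smaller in change than Glyma.09G038600-1. Glyma.15G079100-1 (AP2, the DNA-binding domain of ERF-type regulators) was the one that rose, with 1213 and 1804 units at WT2, against 617 and 629 units at WT1 (limma, log2 difference 1.27, adjusted p = 0.0353). Glyma.10G004800-1 (EXS), Glyma.09G062900-2 (Glyco_hydro_35, beta-galactosidases) and the unique-exon entry Glyma.05G182600-1_UE (Aminotran_3, class III aminotransferases) fell, by limma differences of -1.37, -1.47 and -1.52 with adjusted p = 0.0351, 0.0321 and 0.0481. All of these 3 were higher again at DR2. Over its 1 usable probe of 2, the faint Glyma.07G103900-1 (LEA_2) also fell, by a limma difference of -1.92 ± 0.28 (SE, adjusted p = 0.019). Counted by the deposited means alone, with no test, 15 members were more than 2-fold below WT1 at WT2 and 6 more than 2-fold above.

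The replicates of the second drought did not agree well for this set. Of the 113 members, 90 were higher on DR2 replicate 1 than on replicate 2. Over all transcripts the median log2 difference of replicate 1 from replicate 2 was -0.04. Over 2-fold higher on replicate 1 were 50 members (44.2%, beside 7.43% of all transcripts), and over 2-fold higher on replicate 2 were 0 (beside 6.45% of all). The rule asked for a high mean of these 2 arrays, which favours transcripts lifted by a single bright array. All transcripts are therefore no measure for the members here. The median absolute log2 difference between the 2 DR2 arrays was 0.84 for members and 0.38 for all transcripts, against 0.17 and 0.14 for the DR1 arrays. At WT2, 93 members were higher on replicate 2. The share over all transcripts was not counted, so this number cannot be read as a trait of the members.

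Taken alone, DR2 replicate 1 put the median member 0.80 above its WT1 mean and replicate 2 put it 0.08 below (-0.08). More than 4-fold above WT1 were 22 members on replicate 1 and 5 on replicate 2. With same-numbered arrays compared, 76 members passed the 4-fold rise from DR1 to DR2 in both replicates, 30 only in replicate 1 and 7 only in replicate 2. Both limits were passed in both replicates by 62 members. Both DR2 arrays were on the same slide. The part of the experimental round or the pool of leaves in this was not tested.

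**Figure D3:**
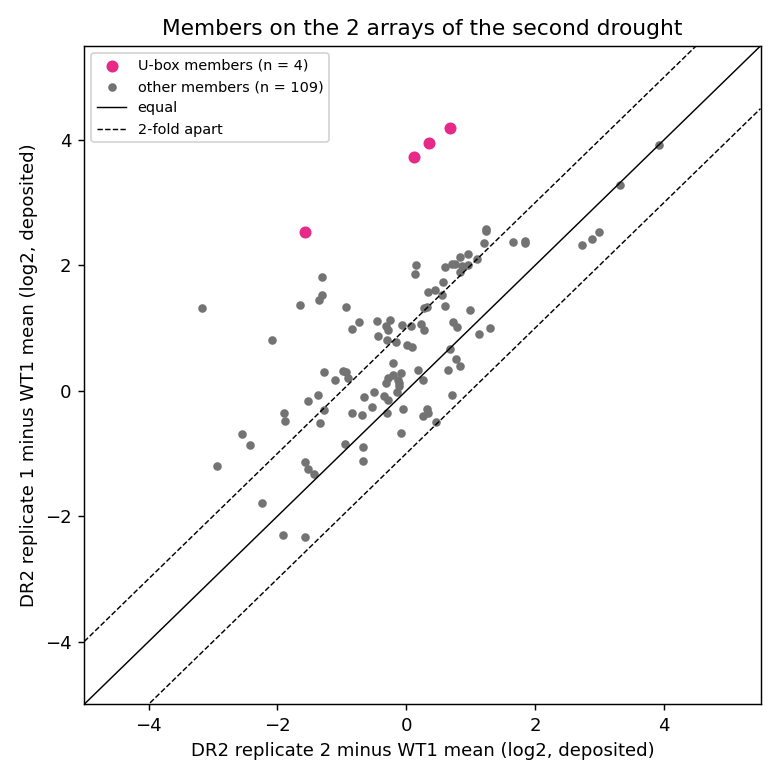
Log2 deposited intensity minus the WT1 mean on DR2 replicate 1 (vertical axis) against DR2 replicate 2 (horizontal axis), 1 point per member. The solid line marks equal values and the dashed lines a 2-fold difference. Above the upper dashed line lie 50 members and below the lower one 0. The 4 U-box members stand 11.5-fold to 17.2-fold above equality. They are not alone: 7 members exceed 8-fold, and the largest difference, 22.4-fold, is that of Glyma.04G225300-1, listed with no domain.

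The Polyketide_cyc2 family, which in Arabidopsis includes the PYR/PYL ABA receptors along with other proteins, had 4 members. The domain name alone does not tell which of them, if any, is a receptor. Glyma.07G155500-1 and Glyma.14G056300-1 had the deepest falls at DR1 after Glyma.04G226100-1, and all 4 had both DR2 arrays below both WT2 arrays. Glyma.07G155500-1 had 1598 and 1606 units at WT1, 64.8 and 60.2 at DR1, 1691 and 1437 at WT2, and 461 and 339 at DR2. The watered stages were alike, and the DR2 level lay between those of DR1 and WT2. The difference of DR2 from WT2 was -2.01 ± 0.23 (SE, limma, adjusted p = 9.65e-05), close to the 4-fold limit: it was -1.98 in the deposited table, -1.89 without WT2 replicate 1 and -1.78 without DR2 replicate 2.

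Glyma.14G056300-1 of the same family had 249 and 522 units at WT1, 24.5 and 8.03 at DR1, 876 and 1299.7 at WT2, and 283 and 96.1 at DR2. Both WT2 arrays lay above both WT1 arrays, though that difference did not pass (limma, 1.58, adjusted p = 0.24). From WT2 to DR2 it fell by 2.71 ± 0.66 (SE, limma, adjusted p = 0.00577). Without DR2 replicate 2 that second difference was -1.94 and no longer passed 4-fold. Glyma.02G261900-1 had 571 and 787 units at WT1, 46.9 and 41.2 at DR1, 723 and 988 at WT2, and 414 and 114 at DR2. Its difference of DR2 from WT2, -1.97 ± 0.52 (adjusted p = 0.00887), was just short of 4-fold, and without DR2 replicate 1 it was -2.90 and called. The weakest of the 4, Glyma.18G206000-1, had 348 and 197 units at DR2 and 582 and 505 at WT2, a difference of -1.06 ± 0.32 (adjusted p = 0.0157).

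These 4 transcripts passed the rule with a second fall that was smaller than the first, and with no rise from WT2 to DR2. Their log2 falls at DR1 from WT1 ran from -4.68 to -3.55, and their falls at DR2 from WT2 from -2.69 to -1.05 in the deposited table. The PP2C family, which holds the phosphatases that those receptors block, had 1 member, Glyma.09G280700-1, with 439 and 343 units at WT1, 69.2 and 70.8 at DR1, 255 and 479.9 at WT2, and 795 and 409.8 at DR2. Its DR2 and WT2 arrays overlapped (0.71 ± 0.39, adjusted p = 0.135).

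**Figure D4:**
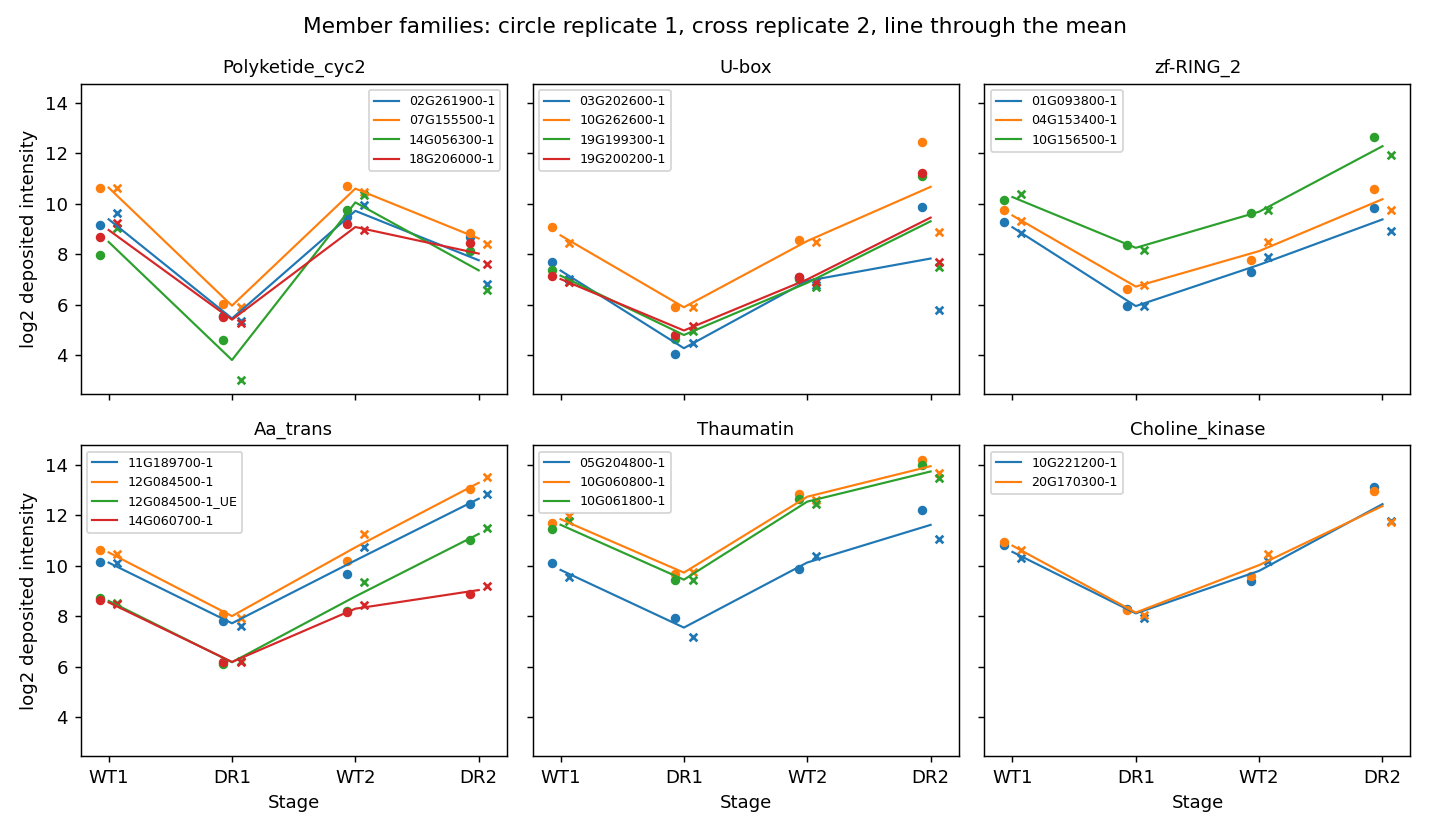
Deposited log2 intensity (vertical axis) over the 4 stages (horizontal axis) for the members of 6 families, 1 colour per transcript, with circles for replicate 1, crosses for replicate 2 and lines through the mean. Polyketide_cyc2 members stand lower at DR2 than at WT2, the U-box members split between the DR2 replicates, and Aa_trans and Choline_kinase members are higher at DR2 than at any other stage, with Glyma.14G060700-1 changing least.

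Ubiquitin ligases, which mark proteins for breakdown, gave 7 members. The U-box family had 4, and in all of them 1 DR2 array was far brighter than the other. Glyma.19G200200-1 had 139.5 and 121 units at WT1, 27.9 and 35.8 at DR1, 137 and 121 at WT2, and 2381 and 207 at DR2. Replicate 1 of DR2 was 11.5-fold above replicate 2, and both were above WT2. The limma difference of DR2 from WT2 was 2.47 ± 0.90 (SE, adjusted p = 0.0366), and without DR2 replicate 1 it was 0.69.

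Glyma.19G199300-1, at a nearby locus of the same chromosome, had 2219 and 182 units at DR2 and 131 and 104 at WT2 (2.46 ± 0.93, adjusted p = 0.042), and without DR2 replicate 1 the difference was 0.63. Glyma.10G262600-1 had 5684 and 471 units at DR2 and 376 and 362 at WT2 (2.18 ± 0.93, adjusted p = 0.0643). In Glyma.03G202600-1 the DR2 arrays, at 946 and 55 units, lay on both sides of the WT2 arrays, at 139 and 109.8 units. The deposited differences of WT2 from WT1 lay between -0.41 and -0.01 on the log2 scale, so that DR2 replicate 1 was the 1 array that stood apart. All 4 had DR1 intensities from 16.7 to 60.1 units, and for Glyma.19G200200-1 and Glyma.03G202600-1, dim on both DR1 arrays, WT1 was at least 4.00-fold and at least 6.69-fold above DR1.

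The 3 RING finger members (zf-RING_2) showed the rise on both arrays. Glyma.10G156500-1 had 1142 and 1337 units at WT1, 329.6 and 285 at DR1, 795 and 858 at WT2, and 6397 and 3906 at DR2. All DR2 values exceeded all others, and the limma difference of DR2 from WT2 was 2.65 ± 0.27 (SE, adjusted p = 5.3e-05). Glyma.04G153400-1 had 1561 and 869 units at DR2 and 219 and 357 at WT2 (2.08 ± 0.35, adjusted p = 0.000828), and Glyma.01G093800-1 had 922 and 484 units at DR2 and 156 and 237 at WT2 (1.81 ± 0.35, adjusted p = 0.00184). The WT2 levels of this pair were below WT1, by -1.41 and -1.49 in the deposited table. Neither difference passed (limma, adjusted p = 0.0706 and 0.0609), and this contrast crosses the slides. Without DR2 replicate 1 or WT2 replicate 1 the difference of Glyma.04G153400-1 was 1.65 or 1.73, under 4-fold.

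Protein kinases, which pass signals on by phosphorylation, gave 4 Pkinase members. Glyma.18G199000-1 and Glyma.18G199100-1 lie next to each other by locus number, and their DR2 levels, at 366 and 452 units and at 408 and 409 units, were above their WT2 levels, at 111 and 159 units and at 156 and 245 units. The limma differences were 1.61 ± 0.27 (adjusted p = 0.00076) and 1.06 ± 0.26 (adjusted p = 0.006). A brighter unique-exon entry of Glyma.18G199000, below 4-fold in the rise and so no member, did not share this. It had 1265 and 1132 units at WT1, 767 and 1218 at WT2, and 688 and 774 at DR2, -0.41 from WT2 in the deposited table. Glyma.04G042400-1 fell furthest of the 4 at DR1, with 24.4 and 29.7 units against 478 and 508 units at WT1, and its DR2 arrays (459 and 312 units) overlapped those of WT2 (224 and 313 units). Among regulators of transcription, Glyma.08G169000-1 and Glyma.15G258100-1 carry the DUF260 domain of the plant LOB family, whose members act at organ boundaries. Glyma.08G169000-1 had 739 and 523 units at WT1, 70.4 and 70.7 at DR1, 770.1 and 1027 at WT2, and 2656 and 1334 at DR2; the DR2 arrays were the highest and the difference from WT2 was 1.10 ± 0.35 (adjusted p = 0.022). Its relative had the same course at a slightly higher level, with a difference of 0.96 ± 0.37 (adjusted p = 0.0451). Homeobox, CCT and VQ domains had 1 member each.

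The transcript with the largest rise encoded a Cu_bind_like protein, the copper-binding domain of plastocyanin-like phytocyanins at the cell surface. Glyma.20G077900-1 had 438 and 384 units at WT1, 74.7 and 65.4 at DR1, 311 and 561 at WT2, and 6236 and 6205 at DR2. The 2 DR2 arrays agreed closely and lay far above every other array. DR2 was 15.2-fold above WT1 and 89.0-fold above DR1 in the deposited table, and 3.96 ± 0.29 above WT2 on the log2 scale (SE, limma, adjusted p = 8.73e-06). This was the only member still called when the test asked for a change significantly greater than 4-fold.

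Glyma.01G004200-1 (Methyltransf_3, O-methyltransferases of phenylpropanoid compounds) was next, with 1084 and 729 units at WT1, 239 and 190.1 at DR1, 1571 and 4502 at WT2, and 8659.9 and 8908 at DR2. The DR2 arrays agreed and the WT2 arrays did not. Its difference of DR2 from WT2 was 1.75 ± 0.46 (adjusted p = 0.00833), short of 4-fold. The level at DR2 was 9.88-fold that at WT1. A further splice form and a unique-exon entry of this locus, faint at WT1 with 17.8 to 21.6 units, stood at 206 and 166 units and at 144 and 143 units at DR2.

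Amino acid transporters of the Aa_trans family gave 4 members from 3 loci, all higher at DR2 on both arrays. Glyma.12G084500-1 had 1559 and 1395 units at WT1, 269 and 244 at DR1, 1176 and 2441 at WT2, and 8491 and 11718 at DR2, and its difference of DR2 from WT2 was 2.60 ± 0.35 (SE, limma, adjusted p = 0.00023). The unique-exon entry of the locus followed it (2.52 ± 0.36, adjusted p = 0.000345). Glyma.11G189700-1 had 1133 and 1096 units at WT1, 809 and 1728 at WT2, and 5601 and 7419 at DR2 (DR2 against WT2, 2.49 ± 0.35, adjusted p = 0.000305). These were among the few members brighter on DR2 replicate 2 than on replicate 1. Without WT2 replicate 1, the differences of Glyma.11G189700-1 and of the unique-exon entry were 1.93 and 1.94, just under 4-fold. Glyma.14G060700-1 rose less, with 470.5 and 583 units at DR2 and 287 and 344 at WT2 (0.74 ± 0.22, adjusted p = 0.0157). A transporter of another amino acid family, Glyma.10G269700-1 (AA_permease_2), had 1476 and 1339.8 units at DR2 and 1813 and 2075 at WT2, a difference of -0.47 ± 0.22 (adjusted p = 0.0858).

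Other membrane transporters were less uniform. Glyma.03G224100-1 (ABC_membrane, the membrane domain of ATP-driven transporters) had 2705 and 1366 units at DR2 and 709.8 and 764 at WT2 (1.41 ± 0.33, adjusted p = 0.00505). The EXS domain belongs to PHO1-type phosphate exporters. Its members Glyma.10G004800-1 and Glyma.02G003700-1 had both WT2 arrays below both WT1 arrays. For Glyma.02G003700-1 that difference did not pass (limma, -1.21, adjusted p = 0.0534). Glyma.10G004800-1 had 473 and 571 units at WT1, 67.9 and 62.4 at DR1, 170.5 and 239.8 at WT2, and 600.4 and 428 at DR2, with DR2 above WT2 by 1.33 ± 0.27 (adjusted p = 0.00224). Glyma.02G003700-1 did likewise at a lower level (1.12 ± 0.27, adjusted p = 0.00614). The HCO3_cotransp pair, in plants a family of borate exporters, showed no second drought response beyond its error: Glyma.15G011200-1 differed by -0.14 ± 0.39 (adjusted p = 0.767) and Glyma.13G362600-1 by 0.02 ± 0.32 (adjusted p = 0.961). A unique-exon entry of Glyma.13G362600 had another pattern, with 227 and 186 units at DR2 and at most 28.3 units at all other stages.

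Pathogenesis-related proteins, antimicrobial proteins that leaves make under attack and under several other stresses, were present in several families. The Thaumatin family (PR-5 type) had 3 members. Glyma.10G060800-1 had 3343 and 4038 units at WT1, 826 and 866 at DR1, 7366 and 6292 at WT2, and 18916 and 13127 at DR2. Each stage was separate from the others, and DR2 was above WT2 by 1.22 ± 0.25 (SE, limma, adjusted p = 0.00242). Glyma.10G061800-1, close to it by locus number, had nearly the same values (1.21 ± 0.25, adjusted p = 0.00268), and whether the probes of one also bind transcripts of the other was not tested. Glyma.05G204800-1 had 4690.2 and 2104 units at DR2 and 938 and 1329.6 at WT2 (1.46 ± 0.43, adjusted p = 0.0152).

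The Barwin pair (PR-4 type) had overlapping DR2 and WT2 arrays. Glyma.03G247500-1 had 332 and 278 units at WT1, 66.3 and 35.3 at DR1, 383 and 979.9 at WT2, and 1128 and 543 at DR2 (0.36 ± 0.52, adjusted p = 0.56); Glyma.19G245600-1 ran parallel to it at a lower level (0.42 ± 0.48, adjusted p = 0.456). The chitinase-type pair (Glyco_hydro_18) returned to the watered level: Glyma.10G227700-1 had 928 and 384 units at DR2 and 642 and 976 at WT2. Over usable probes Glyma.20G164600-1 differed between DR2 and WT2 by -0.29 ± 0.42 (adjusted p = 0.563).

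The PR-1 type member (CAP domain), Glyma.15G062700-1, was the most uneven member at WT2. It had 866 and 481 units at WT1, 169 and 106 at DR1, 965 and 11036 at WT2, and 915 and 1097 at DR2. WT2 replicate 2 was 11.4-fold above replicate 1, and all other watered and DR2 arrays lay between 481 and 1097 units. The limma difference of WT2 from WT1 was 2.38 (adjusted p = 0.218), and that of DR2 from WT2 was -1.72 ± 0.93 (adjusted p = 0.132).

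Choline kinases phosphorylate choline on the way to phosphatidylcholine, a main membrane lipid. Glyma.10G221200-1 had 1786 and 1251 units at WT1, 311 and 245 at DR1, 681 and 1157 at WT2, and 8779 and 3519 at DR2. DR2 lay above all other arrays, by 2.70 ± 0.45 over WT2 (SE, limma, adjusted p = 0.000796). Glyma.20G170300-1 had 8077 and 3444 units at DR2 and 765 and 1414 at WT2 (2.38 ± 0.43, adjusted p = 0.00126), and without DR2 replicate 1 or WT2 replicate 1 its difference was 1.76 or 1.93.

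Squalene epoxidases (SE), which commit squalene to sterols, had the members Glyma.U038300-1, on an unplaced scaffold, and Glyma.14G090400-1, each with 1 usable probe of 2. Over that probe DR2 differed from WT2 by 0.81 ± 0.46 (adjusted p = 0.149) and 0.74 ± 0.51 (adjusted p = 0.223). Glyma.08G306200-1 carries the SQS_PSY domain of squalene and phytoene synthases, and the domain name does not tell which of these it is. It had 2425 and 2692 units at WT1, 637 and 624 at DR1, 2042 and 2593 at WT2, and 1993 and 3225 at DR2. It was a plain case of a transcript at the watered level in all stages but DR1 (DR2 against WT2, 0.15 ± 0.28, adjusted p = 0.658). The Transferase domain, of plant acyltransferases, had 1 member, Glyma.13G302700-1, which had 284 and 232 units at DR2 and 67.8 and 62.7 at WT2, 1.97 ± 0.22 on the log2 scale (adjusted p = 7.95e-05), just short of 4-fold.

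Papain-type cysteine proteases (Peptidase_C1) gave 3 members of similar level. Glyma.06G272900-1 had 254 and 241 units at WT1, 48.6 and 45.2 at DR1, 94.9 and 209.5 at WT2, and 237 and 405 at DR2 (DR2 against WT2, 1.13 ± 0.39, adjusted p = 0.029). Its neighbour by locus number, Glyma.06G273600-1, had 186 and 361 units at DR2 and 86.7 and 240.0 at WT2 (0.84 ± 0.47, adjusted p = 0.141). Glyma.12G130500-1, with 1 usable probe, gave 0.92 ± 0.42 over it (adjusted p = 0.0818). All 3 were brighter on replicate 2 than on replicate 1 at both WT2 and DR2.

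Chromatin and cell division genes, active where leaf cells still divide, gave no call at DR2 against WT2 in 5 members of the histone and cyclin families. Histone H2A members Glyma.03G148100-1 and Glyma.19G151400-1 had 1321 and 586 units and 591 and 273 units at DR2, against 452 and 848 units and 467 and 874 units at WT2. The limma differences, 0.51 ± 0.41 (adjusted p = 0.297) and -0.67 ± 0.40 (adjusted p = 0.168), did not pass. Glyma.12G055200-1 (Histone) had 1277 and 1382 units at WT1, 189.8 and 198 at DR1, 1736 and 2691 at WT2, and 1264 and 515 at DR2. It was lower at DR2 than at WT2 by -1.44 ± 0.41 (adjusted p = 0.0122).

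The cyclins, which drive the cell cycle, had 2 members. Glyma.07G119100-1 had 1059 and 971 units at WT1, 165 and 151 at DR1, 767 and 1054 at WT2, and 844 and 699 at DR2, with no second drought response beyond the error (-0.23 ± 0.24, adjusted p = 0.407). Glyma.02G177700-1, with 1 usable probe of 3, fell by 0.73 ± 0.27 over that probe (adjusted p = 0.0389). In contrast Glyma.13G358700-1 (Kinesin, a motor on microtubules) had 4926 and 2941 units at DR2 and 1183 and 619 at WT2, and rose by 2.19 ± 0.37 (SE, limma, adjusted p = 0.000825). Without WT2 replicate 2 or DR2 replicate 1 the difference was 1.72 or 1.81, under 4-fold.

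Phloem lectins (PP2) were faint. Glyma.19G231000-1 had 132 and 137 units at WT1, 18.6 and 21.0 at DR1, 107 and 120.1 at WT2, and 546 and 221 at DR2, and rose by 1.61 ± 0.38 from WT2 (adjusted p = 0.00489); not well above background at DR1, it was at least 5.48-fold lower there than at WT1. Glyma.03G233800-1 had 103 and 47.9 units at DR2 and 61.9 and 71.4 at WT2. The expansin-type member Glyma.06G195000-1 (Pollen_allerg_1), from a family that loosens cell walls, had 621 and 314 units at DR2 and 582 and 711 at WT2.

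The deepest fall belonged to Glyma.04G226100-1 (UNC-93, named for a regulator of a potassium channel in Caenorhabditis elegans). It had 1362 and 1330.3 units at WT1, 19.2 and 22.9 at DR1, 482 and 445 at WT2, and 742 and 249.9 at DR2. Neither DR1 array was well above background, so WT1 was at least 55.8-fold above DR1. WT2 lay -1.54 from WT1 and DR2 -1.64 from it in the deposited table, and the DR2 arrays lay on both sides of the WT2 arrays. The difference of WT2 from WT1 did not pass (limma, adjusted p = 0.0998).

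Other members that stayed low at DR2 were Glyma.10G159700-1 and Glyma.20G067300-1, for which no domain name was at hand, and Glyma.19G166500-1 (GMC_oxred_N, flavin-dependent oxidoreductases). Glyma.10G159700-1 had 4129 and 3381 units at WT1, 144 and 190.4 at DR1, 2276 and 2525 at WT2, and 759 and 987 at DR2. It was the lowest relative to WT1 (-2.11), and DR2 was under WT2 by -1.50 ± 0.25 (adjusted p = 0.000792), under 4-fold. Glyma.20G067300-1 behaved likewise, with 504 and 861 units at DR2 and 1739.6 and 1316 at WT2 (-1.22 ± 0.30, adjusted p = 0.00645). Glyma.19G166500-1 had 1569 and 472 units at DR2 and 2114 and 985 at WT2, which overlap, against 4714 and 2769 at WT1.

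The remaining called members were Glyma.01G112000-1, with 4126 and 1627 units at DR2 and 303 and 524 at WT2 (2.74 ± 0.45, adjusted p = 0.000669), Glyma.10G012400-1, with 497 and 192 units at DR2 and 61.7 and 89.5 at WT2 (2.05 ± 0.42, adjusted p = 0.0023), both listed with no domain, and Glyma.05G182600-1_UE (2.15 ± 0.33, adjusted p = 0.000504). The call of Glyma.10G012400-1 was lost without DR2 replicate 1 (1.36), without WT2 replicate 1 (1.79) and under 3 other background or normalization settings (1.51 to 1.94), and that of Glyma.05G182600-1_UE without DR2 replicate 1 or WT2 replicate 2 (1.79 each). Of the 15 members called higher at DR2 than at WT2, 6 were more than 2-fold brighter on DR2 replicate 1 than on replicate 2.

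Annotation was at hand for 110 of the 113 members: 89 carried 1 of 59 domains and 21 were listed with none. The 18 domains that had at least 2 member loci held 46 member loci, and the same count was not made for other transcripts. Across 19 domains listed for comparison, 191 annotated transcripts were tested, 44 of them members. Of the other 147, 45 were called lower at DR1 than at WT1 and 22 higher at DR2 than at DR1, and 0 both; that last count follows nearly from the rule, and 0 of the same transcripts passed both in the deposited table. The annotation covers 4463 transcripts that the study listed because they changed on these same arrays, so these counts are no independent evidence and do not give a share of a family. Within the annotated transcripts, both Barwin, both SE and both Histone_H2A_C transcripts were members, as were 4 of 6 Polyketide_cyc2, 4 of 9 U-box, 3 of 28 zf-RING_2, 1 of 39 PP2C and 1 of 20 Pollen_allerg_1 transcripts.

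By locus name, members lay on all 20 chromosomes, with 15 loci on chromosome 10 (0.614% of its 2442 loci in the table) and 3 to 7 on each of the others (0.137% to 0.319%); 1 locus was on an unplaced scaffold. Locus numbers within 1000 of each other occurred 6 times, among them the kinase, Thaumatin, U-box and protease neighbours described above. Of 15 further transcripts from member loci, 14 were lower at DR1 than at WT1 and 13 higher at DR2 than at DR1, but 3 and 7 passed 4-fold.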

How the data were processed

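Per the file headers, the deposited array files hold spot and local background intensities read with Feature Extraction 11.5.1.1. A further deposited table holds intensities after the authors' own background correction and normalization in limma, whose settings are not given in the sources used here. Every sample column was mapped to a sample by its label. The members and all intensities printed per array come from that table, on its linear scale. The members, family lists and tests were chosen with earlier results of these data known.

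Log2 differences with SE and adjusted p come from the scanner values: median signal, normexp background correction (offset 0), quantile normalization, removal of control and outlier spots (2 to 11 per array), and the mean over a transcript's probes. A transcript was tested when a probe was well above background in some stage, on both of its arrays. limma 3.58.1 in R 4.3.3 (lmFit, eBayes, 8 arrays, 4 means) gave the tests, and the pipeline was tested on simulated data. SE rest on 2 arrays per stage, a number that limits their precision. Figures were drawn with matplotlib 3.10.9.

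The text names the 6 members with the largest and the 6 with the lowest DR2 minus WT1, the 4 with the lowest DR1 minus WT1, the 4 with the largest DR2 minus DR1, those called at WT2 against WT1, and members of listed families. Other members were named after their values were seen. Domain names came from the study's lists of changed transcripts. Replicate numbers were not treated as pairs: deviations of same-numbered arrays correlated between -0.31 and 0.29. Sequences and genome positions were not used here.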

Additional observations from a re-analysis of the deposited data

Results flagged for a closer look

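For 52 members both DR1 arrays lay below both WT1 arrays while both DR2 arrays lay above both WT2 arrays. The 2 differences thus had opposite directions. They are of unlike kinds: WT1 came from a separate plate that kept its water, whereas WT2 was an earlier sampling of the DR2 plate. The difference between the 2 responses was not tested, since the first of them chose the members. The fall at DR1 was part of the choice; for DR2 arrays above WT2 arrays alone, the share was 46% of members, beside 40.3% of all transcripts. Of the 15 members called higher at DR2 than at WT2, Glyma.20G077900-1 was the one with the closest agreement between DR2 arrays, at 6236 and 6205 units.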

How the results depend on the processing

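The rule found 266 transcripts with the scanner software's processed signal, scaled by the 75th percentile, 98 with scanner values as fitted here, 941 at a threshold of 1 and 11 at a threshold of 3 on the log2 scale, and 62 with both same-numbered pairs past 4-fold. Leaving out 1 array at a time it found 92 (without DR2 replicate 1) to 171 (without DR2 replicate 2), with 84 and 108 of the 113 members among them. Of DR2 against WT2, members called higher ran from 8 to 27 and lower from 0 to 6 without 1 array, with the lowest of the first and the highest of the second without DR2 replicate 1. Asking for 2-fold gave 42 and 9, a test against 4-fold (treat) 1 and 0, and lower calls were 1 with the deposited table or an offset of 50. Of WT2 against WT1, higher calls ran from 0 to 2 and lower from 0 to 1 without 1 array, were 1 and 4 at 2-fold, and lower calls were 2 with the deposited table and 0 with treat. Members over 4-fold above WT1 at DR2 numbered 16 with the processed signal and 5 to 22 without 1 array, and those over 4-fold below 2 to 6. Family transcripts outside the set passing both contrasts were 2 with 75th percentile normalization. The causes were not tested. The medians of both comparisons kept their sign throughout (0.28 to 1.05 for DR2 minus WT2, -0.50 to -0.10 for WT2 minus WT1). Usable probes alone, added after seeing the data, gave 15 higher and 2 lower calls. With a replicate block, DR2 against WT2 gave 16 higher and 2 lower calls, Glyma.10G262600-1 (2.18) being added, and calls at WT2 against WT1 were 0 and 1. Of 891 values of named transcripts under alternatives, 831 kept their call, 48 lost it, 12 gained it and 0 reversed. The calls of Glyma.19G199300-1 and Glyma.19G200200-1 were lost under most settings. Signal near background limits the fall of the 19 members dim at DR1.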

Other observations

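Further members of carbohydrate-acting enzyme families are given by their values. Glyma.09G062900-2 (Glyco_hydro_35, beta-galactosidases) had 2368 and 1924 units at DR2 and 1337 and 966 at WT2, a limma difference of 0.93 ± 0.28 (SE, adjusted p = 0.0171), whereas the other listed splice form of its locus, Glyma.09G062900-1, stood at 5350 and 4533 units at DR2 and 3776 and 2518 at WT2. Glyma.08G147900-1 (Pectinesterase, which removes methyl groups from pectin) had 1193 and 400.2 units at DR2 and 984 and 1187 at WT2. Its arrays overlapped, with a difference of -0.65 ± 0.50 (adjusted p = 0.276). Glyma.18G137500-1 (Glyco_hydro_16, which includes the enzymes that cut and rejoin xyloglucan) rested on 1 usable probe and had 373 and 113 units at DR2 and 57.5 and 119 at WT2.

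Among members listed with no domain, the brightest was Glyma.14G092500-1, with 12818 and 19246 units at WT1, 2225 and 2406 at DR1, 17006 and 21650 at WT2, and 19309 and 8256 at DR2. Its DR2 and WT2 arrays overlapped. Glyma.10G274100-1 was lower at DR2, with 1448 and 566 units, against 2153 and 3315 units at WT2 (limma, -1.59 ± 0.43, adjusted p = 0.01). Glyma.12G206700-1 and Glyma.13G294200-1 followed each other closely on all arrays, with 3196 and 896 units and 2999.6 and 844 units at DR2, against 1099 and 2107 units and 1099 and 2239 units at WT2. In both, DR2 replicate 1 was the highest array and replicate 2 the lowest outside DR1. These transcripts were picked after their values were seen.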
